A study of Mus musculus with 30 samples.

Results

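The hippocampus of XX mice lacking TIMP2 was compared with that of XX wild-type mice. The comparison took every female mouse of the series, 7 TIMP2 knockout (KO) and 7 wild-type (WT), which is 14 of the 30 mice sequenced, and chose none by a measured value. The other 16 mice were XY (6 KO and 10 WT) and share no animal with it, so they served as a set of other animals. They are of the same KO line, and whether litters or harvest dates were shared is not in the labels. All mice were C57BL/6J by the labels, the TIMP2 KO line came from the Jackson Laboratory, and the methods give littermates as controls. The methods give the study's KO and WT mice as adults in 2 age ranges and do not say which was sequenced, and the structure of the deleted allele is not given in the sources used here. Each library is the poly(A)-selected RNA of the hippocampus of 1 mouse, and the mice are named by the number in their label (KO mice 3, 5, 8, 11, 25, 27 and 30; WT mice 4, 9, 16, 19, 21, 23 and 28).

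TIMP2 is a secreted inhibitor of matrix metalloproteinases, the enzymes that cut the extracellular matrix around cells. It blocks the active site of these enzymes and also takes part, with the membrane-bound protease MMP14, in turning pro-MMP2 into active MMP2. In the hippocampus, granule cells of the dentate gyrus pass cortical input on to CA3 and then CA1 pyramidal cells, and new granule cells are added through adult life. The matrix there includes perineuronal nets, lattices of proteoglycans such as aggrecan that surround some neurons and synapses.

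Reads counted on genes numbered 18345517 to 41081083 per KO mouse and 19698292 to 31923716 per WT mouse. The biological coefficient of variation common to all genes was 6.43%, so the spread between mice and not counting error set the precision of well-covered genes. Xist, the RNA that silences 1 X chromosome, lay between 378 and 516 CPM (counts scaled to a common library size) in the 14 mice, and the 4 Y-linked genes examined summed to at most 0.383 CPM. In the XY mice Xist did not pass 0.952 CPM and the same Y-linked genes summed to at least 124 CPM, so every mouse matched its labelled sex. The neuronal markers of the tissue were abundant, with Camk2a at 4210 to 5098 CPM and Slc17a7 at 1418 to 1701 CPM. The first principal component, the axis along which the mice differed most over all genes tested, held 14.27% of the variance. KO mouse 5 lay at -24.04 on it and WT mice 21 and 16 at 16.36 and 15.63, with the other mice between -9.44 and 8.05. The 2 KO mice 5 and 11 stood apart in choroid plexus transcripts, and the leading counts are given with and without both mice. The study's network analysis treated harvest date as a batch, but the date is not in the labels, so it is not accounted for in any call and its part was not tested.

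The genotype labels were checked first with the targeted gene. Timp2 (ENSMUSG00000017466; GRCm38 chromosome 11, 118301069 to 118355740, minus strand) lay between 149 and 171 CPM in KO mice, with a median of 163. In WT mice it lay between 257 and 370 CPM, with a median of 297. All 7 KO mice were below all 7 WT mice, and the KO mice were close together while the WT mice spread over more than 100 CPM (SD 7.53 against 44.5 CPM, n = 7 each). The log2 fold change was -0.95 (SE 0.07), which leaves 51.9% of the WT level, with an adjusted p of 2.56e-07 by edgeR's quasi-likelihood test. Reads on Timp2 were therefore reduced and not absent, and counts summed over a gene do not show which exons they came from. The level separates KO from WT labels but does not by itself tell a homozygous from a heterozygous deletion. For the protein, the paper found no TIMP2 band in hippocampal interstitial fluid of KO mice, and it left heterozygous animals out of its RNA sequencing. In XY mice the log2 fold change was -1.04, and the interaction of genotype and sex had a p of 0.38 for this gene in edgeR's test.

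Across the genome the XX comparison gave few genes that hold after correction. Of 16397 genes tested, 2 had an adjusted p under 0.05 in edgeR's quasi-likelihood test (0.0122%; Benjamini-Hochberg method), Timp2 and 2900041M22Rik. At an unadjusted p under 0.05, the threshold of the study and the one meant below by a called gene, 382 genes were higher in KO mice (2.33%) and 441 were lower (2.69%). The 823 called genes stand beside the 819.85 that this threshold passes on average among 16397 genes with no difference, so a single called gene carries little weight. Without mice 5 and 11, 2 genes passed after adjustment, and 266 higher and 343 lower genes were called. DESeq2 called 3 genes after adjustment, 337 higher and 421 lower before it. The called genes changed little: their median absolute log2 fold change was 0.15, 65.1% of them were under 0.2, and 11 reached a 2-fold change, 9 of them higher.

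2900041M22Rik (ENSMUSG00000054418), a processed transcript on the same chromosome 0.687 Mb from Timp2 (117611247 to 117613857, plus strand), had the largest decrease of all called genes. It lay between 0.21 and 0.966 CPM in KO mice with a median of 0.493, and between 1.4 and 2.47 CPM in WT mice with a median of 1.87. The groups did not overlap, the log2 fold change was -1.89 (SE 0.23), and edgeR's adjusted p was 8.78e-04. In XY mice its log2 fold change was -1.68. The next smallest p belonged to F730043M19Rik, a long noncoding RNA named here after its values were seen, with a log2 fold change of -0.19 and an edgeR adjusted p of 0.102. All KO mice were below all WT mice for 8 genes (0.0488% of genes tested) and above them for 3 (0.0183%).

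Levels of Timp2, 2900041M22Rik and 6 further genes described below are plotted by mouse.

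**Figure D1:**
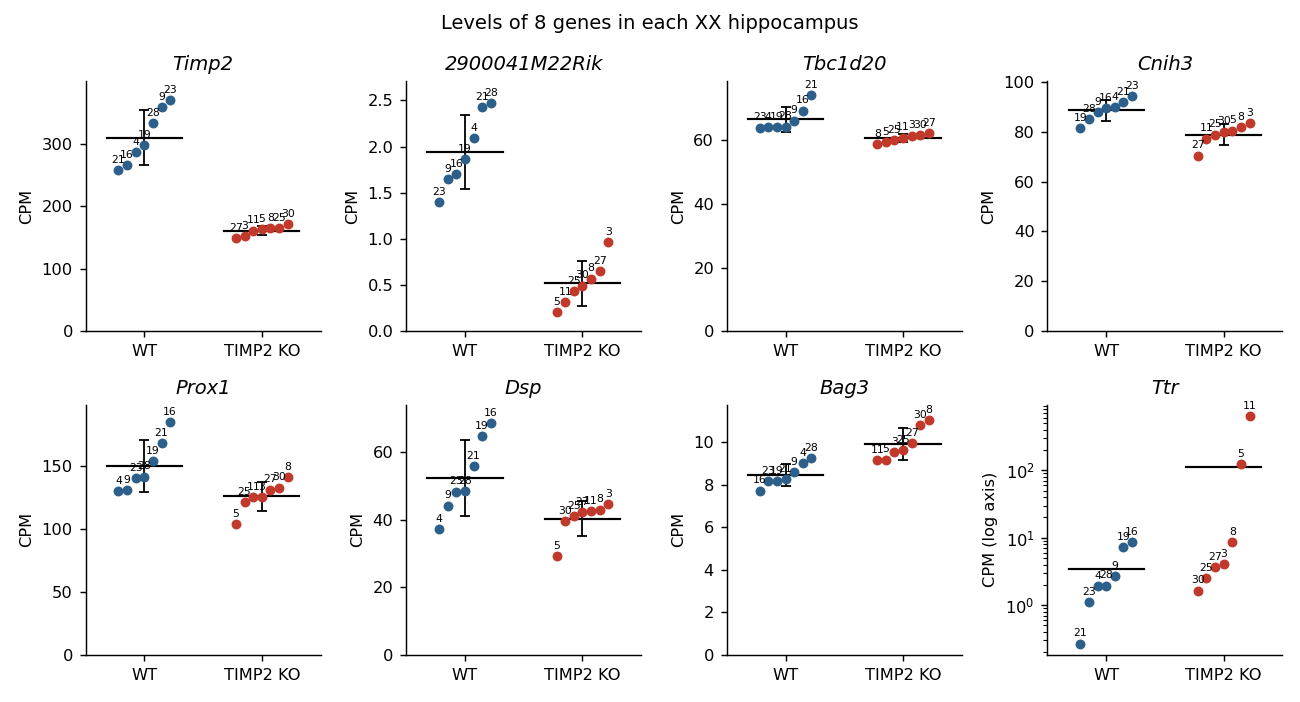
CPM of 8 genes in each XX mouse, WT in blue and TIMP2 KO in red, with the mouse number at each point, a line at the mean of 7 mice and bars of 1 SD (none for Ttr, on a log axis). KO and WT mice do not overlap for Timp2, 2900041M22Rik and Tbc1d20. Mouse 5 is lowest for Prox1 and Dsp, and mice 5 and 11 are highest for Ttr.

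Cxcl5, a chemokine gene also named after its values were seen, had the next smallest p after F730043M19Rik and was higher in KO mice, at a mean of 1.01 CPM (SD 0.28) against 0.494 CPM (SD 0.15) in WT mice, n = 7 each. The groups overlapped, and the log2 fold change was 0.99 (SE 0.22, edgeR adjusted p = 0.769).

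The named genes of at least 1 CPM that were lower in KO mice with the smallest p, apart from Timp2 and 2900041M22Rik, changed by small amounts. Tbc1d20, a GTPase-activating protein of the secretory pathway, lay between 58.8 and 62.2 CPM in KO and between 64 and 74 CPM in WT mice. The groups did not overlap, and the log2 fold change was -0.14 (SE 0.04, edgeR adjusted p = 0.769). Cnih3, an auxiliary subunit of AMPA-type glutamate receptors, had a median of 80.1 CPM in KO and 89.5 CPM in WT mice, and only the lowest WT mouse (19, 81.5 CPM) fell within the KO range of 70.5 to 83.4 CPM. Its log2 fold change was -0.17 (SE 0.04). Arhgap20, a GTPase-activating protein, had medians of 97.5 CPM in KO and 113 CPM in WT mice, and Fam163b medians of 188 and 221 CPM.

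The other genes of this kind were Dgkh, a diacylglycerol kinase (log2 fold change -0.40), Gng7, a G protein gamma subunit (-0.12), Stk32c (-0.13), Mccc2, a subunit of a mitochondrial carboxylase for leucine breakdown (-0.16), Amer3 (-0.14) and Cdh8, a cadherin of synapses (-0.13). In each of them all 7 KO mice lay below the WT median. In XY mice Arhgap20, Fam163b, Dgkh, Amer3 and Cdh8 had log2 fold changes of -0.05, -0.04, 0.01, 0.01 and 0.01, with none of them called. Cnih3, Tbc1d20, Gng7, Stk32c and Mccc2 were not called lower in XY mice either, and Tbc1d20 changed by 0.03 there.

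Among the genes higher in KO mice, the smallest p above 1 CPM belonged to Ttr, taken up with the choroid plexus below. Gdpd1, a phosphodiesterase of lysophospholipids, had a median of 46.8 CPM in KO and 42 CPM in WT mice (log2 fold change 0.13, SE 0.03). Bag3, a co-chaperone of HSP70, had medians of 9.63 and 8.25 CPM (0.22, SE 0.06). Sema4a, a membrane-bound semaphorin, had medians of 24.5 and 21.9 CPM (0.15), and Vgf, a neuropeptide precursor, 221 and 199 CPM (0.13).

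All 7 KO mice were above the WT median for these 4 genes, although the KO and WT ranges overlapped in each. AI854703 was the 1 gene of the 12 higher genes with the smallest p in which every KO mouse (24.52 to 25.9 CPM) lay above every WT mouse (18.9 to 24.48 CPM). Tpra1 (0.16), Tmem255b (0.54), Tpd52 (0.10), the zinc finger genes Zfp758 (0.16) and Zfp185 (0.48), and the secreted protein gene C1qtnf1 (0.51) completed the genes with the smallest p. Of all these higher genes, Ttr, C1qtnf1 and Vgf were also called higher in XY mice.

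Genes around Timp2 were examined because a targeted allele is inherited together with the sequence that flanks it. Of 397 genes tested within 20 Mb on either side, 30 were called (13 higher and 17 lower, 7.56%), against 4.95% of the 15999 genes elsewhere. The share fell with distance: 8 of 31 genes were called under 1 Mb from Timp2 (25.8%), 15 of 153 between 1 and 5 Mb (9.8%), 0 of 24 between 5 and 10 Mb, and 7 of 189 between 10 and 20 Mb (3.7%). Without mice 5 and 11, 15 genes within 20 Mb were called in place of 30. This was a steeper fall than over all genes, where 382 higher and 441 lower calls became 266 and 343.

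In 9 of the 30 genes the call was shared with XY mice in the same direction, all of them within 5 Mb of Timp2. Of the 8 called genes under 1 Mb, 5 were among them. C1qtnf1, 0.0725 Mb from Timp2, lay between 1.71 and 3.05 CPM in KO and between 1.23 and 2.04 CPM in WT mice, with log2 fold changes of 0.51 in XX and 0.54 in XY mice. Cant1, a calcium-activated nucleotidase, was 0.0506 Mb away and changed by -0.07 and -0.13.

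The gene models Gm11733 (1.08 in XX and 1.00 in XY) and Gm34418 (-0.62 and -0.63) lay 0.812 and 0.819 Mb from Timp2. Farther out were Mettl23, a methyltransferase gene (-0.23 and -0.25), and the group of Hexdc, a hexosaminidase (-0.26 and -0.24), Cybc1, a chaperone of the phagocyte oxidase (0.13 and 0.19), and Rab40b (0.15 and 0.29), all 3 between 2.85 and 3.00 Mb away. Hexdc was lower in all 7 KO mice than the WT median, with medians of 12.3 CPM in KO and 15.3 CPM in WT mice. The strand setting of the counting is not stated in the sources used here, so reads of neighbours that overlap, such as Hexdc and Cybc1 or Mettl23 and Srsf2, may have been shared.

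**Figure D2:**
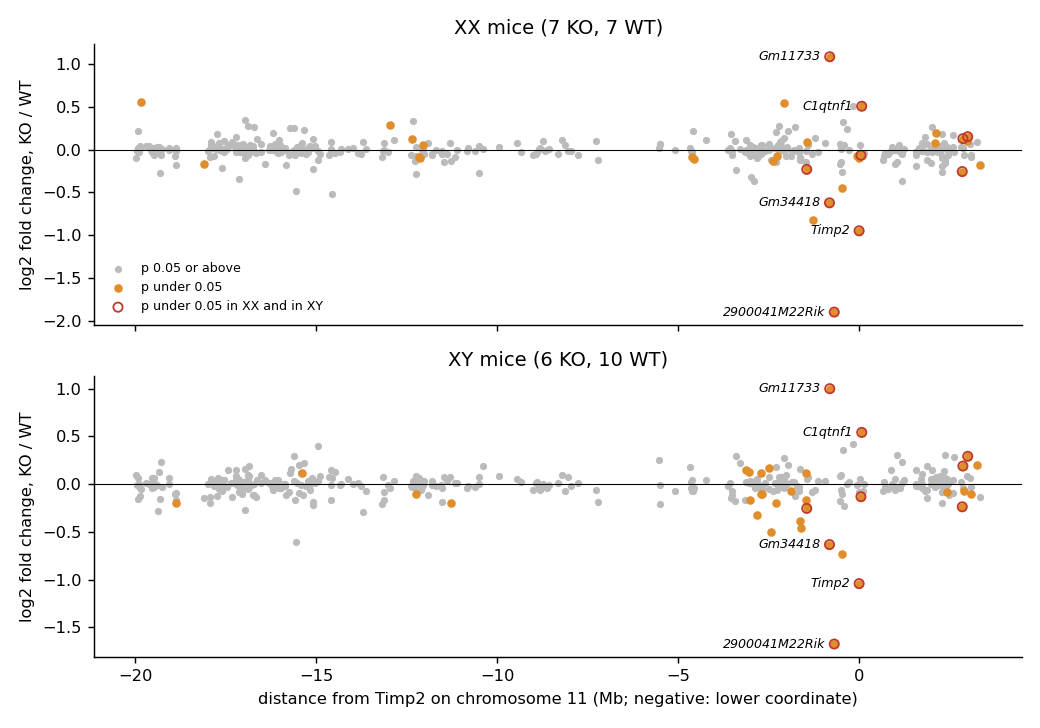
Log2 fold change (KO over WT) of each tested gene against its distance from Timp2 in Mb, in XX mice above and XY mice below; orange points have an unadjusted p under 0.05 and red rings mark genes called in both. The ringed genes, Timp2 included, number 10 and lie within 5 Mb of Timp2.

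The gene lists that follow were drawn up with earlier results of these data known, so each is described by its counts beside the shares over all genes, 2.33% higher and 2.69% lower. Calls in XY mice stand beside 540 of the 16607 genes tested there, both directions together. In bulk tissue, fewer cells of a type and less RNA per cell cannot be told apart.

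Markers of dentate gyrus granule cells were lower in KO mice. Of 12 markers tested, 9 were called lower (75%) and 0 higher, and the median log2 fold change was -0.20 against 0.001 over all genes tested. Prox1, the transcription factor that sets granule cell identity, lay between 104 and 141 CPM in KO mice with a median of 125, and between 130.2 and 185 CPM in WT mice with a median of 141. KO mouse 5 was lowest and WT mice 16, 21 and 19 were highest, the ranges overlapped, and the log2 fold change was -0.26 (SE 0.07, edgeR adjusted p = 0.769).

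Dsp, the desmosomal linker desmoplakin, lay between 29.2 and 44.6 CPM in KO and between 37.2 and 68.5 CPM in WT mice. Mouse 5 again stood well below the other KO mice, and the log2 fold change was -0.38 (SE 0.11). Dock10, an activator of small GTPases, lay between 75.3 and 96.8 CPM in KO and between 86.2 and 124 CPM in WT mice, with a log2 fold change of -0.26. Lct, the lactase gene, followed with -0.32, Tdo2, which breaks down tryptophan, with -0.30, Npnt, a matrix ligand of integrin alpha 8, with -0.21, Stxbp6 with -0.18, C1ql2, a synaptic C1q-like protein of mossy fibres, with -0.17, and Rfx3, a transcription factor of cilia genes, with -0.14.

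The markers not called were Pdzd2 (-0.17), Glis3 (-0.05) and Sema5b (0.10). Mouse 5 had the lowest value of the 14 mice for all 9 called markers, and the highest value belonged to WT mouse 21 for 5 of them, mouse 16 for 3 and mouse 19 for 1. The mean log2 CPM of the 12 markers ran from 5.33 to 5.65 in KO and from 5.59 to 5.96 in WT mice. Mice 16, 21 and 19 lay at 5.96, 5.90 and 5.84, and the other 4 WT mice lay between 5.59 and 5.62, within the KO range. Mouse 5 and WT mice 16 and 21 were also at the opposite ends of the first principal component over all genes, while mouse 19 was not (-4.72). The part of that axis in the granule cell values was not tested.

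Without mice 5 and 11, 6 of the 12 markers were still called lower (Prox1, Dock10, Dsp, Lct, Npnt and Tdo2), and leaving out single mice gave 7 to 9. In XY mice the median log2 fold change of the 12 was -0.05 and 2 were called lower, Tdo2 (-0.17) and Stxbp6 (-0.11). The interaction of genotype and sex had a p under 0.05 for 2 of the 12, Lct and Npnt, beside 2.66% of all genes tested, and no adjusted p under 0.05.

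Markers of the neighbouring pyramidal cells did not share this direction. Of 12 CA1 markers, 1 was called, Wfs1, an endoplasmic reticulum membrane protein, which was higher (median 108 CPM in KO and 97.8 CPM in WT mice, log2 fold change 0.18). Of 15 CA2 and CA3 markers, Fam163b (-0.27) and Pcp4, a calmodulin-binding peptide (-0.11), were called lower and Elavl2, an RNA-binding protein (0.11), was called higher, with a list median of 0.04. Of the markers of neighbouring regions, 2 of 11 neocortical genes were lower, Scnn1a (-0.25) and Lamp5 (-0.12), while 7 of the 11 had a positive log2 fold change and the list median was 0.065. With mice 5 and 11 left out Scnn1a was still called lower, and the calls of Lamp5 and Wfs1 were lost. At the same threshold 0 of 10 thalamic and habenular genes were called. Scnn1a, an epithelial sodium channel subunit, did not overlap between groups (6.52 to 8.42 CPM in KO and 8.57 to 11.5 CPM in WT mice).

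Adult neurogenesis was followed through 36 genes, of which Prox1 was the 1 called lower and Tubb3, a neuronal tubulin, the 1 called higher (0.08). Sox2, a stem cell factor, had a median of 54.6 CPM in KO and 54.7 CPM in WT mice. Dcx, which marks immature neurons, had medians of 13.3 CPM in both groups and a log2 fold change of 0.04 (SE 0.10). Mki67, a proliferation marker, ran from 1.22 to 1.70 CPM in KO and from 1.34 to 2.42 CPM in WT mice with a log2 fold change of -0.26 (SE 0.14), which did not pass the threshold. Of 20 cell cycle genes, Cenpa, a centromeric histone (-0.47), and Mcm6, a helicase subunit (-0.17), were called lower. Rbfox3, the NeuN gene, changed by -0.04.

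Choroid plexus genes were higher in KO mice, and the change rested on 2 animals. Of 17 members, 9 passed the filter on low counts, and 7 of these were called higher (77.8%), with a median log2 fold change of 0.72. A sparse member could pass that filter through the mice in which it was high, so these counts are a description. Ttr, the thyroid hormone carrier that the choroid plexus secretes, lay between 1.64 and 635 CPM in KO mice with a median of 4.08, and between 0.27 and 8.71 CPM in WT mice with a median of 1.95. KO mice 11 and 5 were at 635 and 124 CPM, and the other 5 KO mice lay within the WT range. The log2 fold change of 5.04 (SE 1.23) fell to 0.25 without mice 5 and 11.

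The other members called were Cldn2, a tight junction protein (1.71), Clic6 (2.28), the prolactin receptor Prlr (0.87), Enpp2, which makes lysophosphatidic acid (0.59), Sostdc1 (0.58) and the sulfate transporter Slc13a4 (0.72). Mouse 11 had the highest value for all 7. The 8 members too sparse to be tested, among them Folr1, Kcnj13 and Otx2, summed to 1315 counts in mouse 11 and 201 in mouse 5, and to between 11 and 48 counts in the other 12 mice. Without both mice, 2 members were called, Cldn2 (0.67) and Prlr (0.31). In XY mice 4 members were higher, and the list median was 0.13.

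The same animals moved the meningeal list. Of 15 genes of meninges and fibroblasts, Igfbp2 (0.23), Col1a2 (0.33) and Fmod (0.55) were called higher, all highest in mouse 11, and 0 were called higher without mice 5 and 11. In XY mice the list median was -0.22 with 4 genes lower, against 0.20 in XX mice, and the interaction had a p under 0.05 for 4 of the 15.

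Mice 5 and 11 did not sit together on the granule cell list: mouse 11 had a mean of 5.56, near the middle of the KO mice, and mouse 5 the lowest, 5.33. Beyond leaving both mice out, the part of choroid plexus RNA in the granule cell values was not tested.

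**Figure D3:**
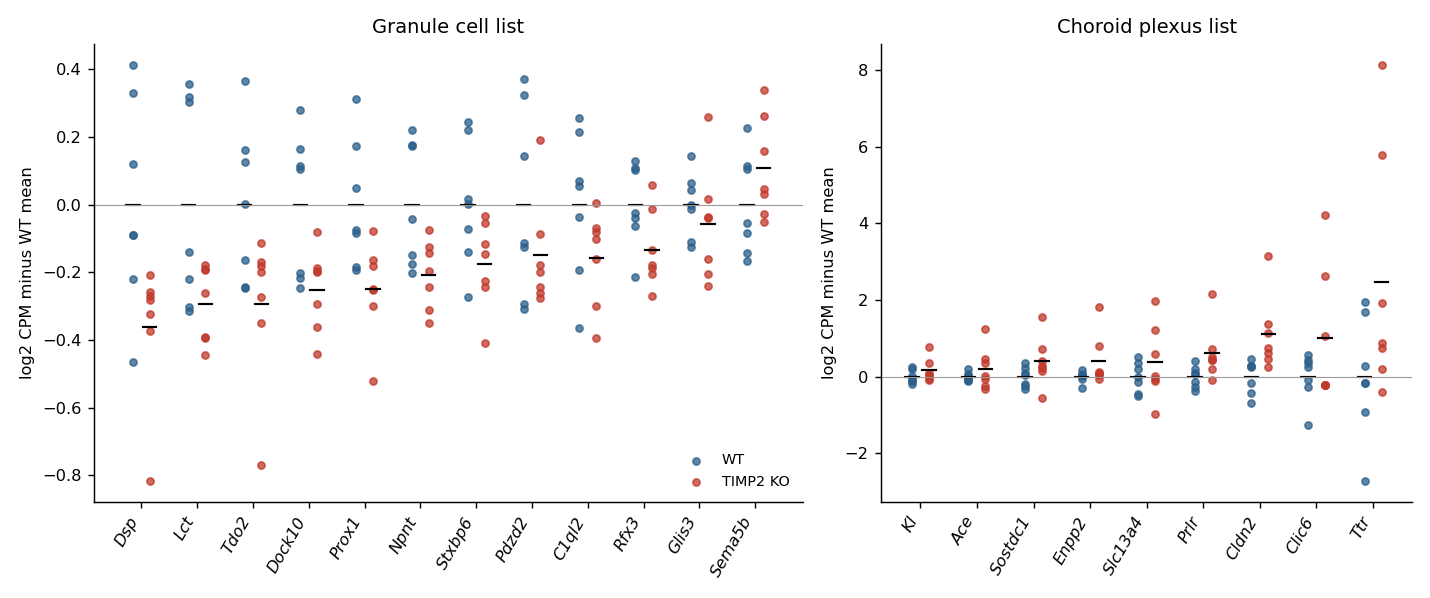
Log2 CPM of each mouse minus the WT mean for 12 granule cell markers (left) and 9 choroid plexus genes (right), WT in blue and TIMP2 KO in red, with lines at group means. KO mice sit low for most granule cell markers, and on the right 2 KO mice, 11 and 5, lie far above the rest for Ttr and Clic6.

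Genes of neuronal excitability and synapse structure were called lower more often than higher. Of 69 genes of synapse organization, 8 were lower (11.6%) and 0 higher. They were Cdh8 (-0.13), Slitrk3, which organizes inhibitory synapses (-0.11), the netrin family member Ntng1 (-0.11), Il1rap (-0.13), the adhesion genes Lrfn5 (-0.08), Lrrc4 (-0.08) and Slitrk2 (-0.12), and the ephrin receptor Epha7 (-0.15). Cdh8 lay between 70 and 75.1 CPM in KO and between 74.9 and 86.3 CPM in WT mice, with only WT mouse 19 inside the KO range. The median of the list was 0.001, the same as over all genes, so the remaining members did not lean the same way.

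The channel list holds 48 genes, most of them voltage-gated. Of these 48, 7 were lower (14.6%) and 0 higher, with a list median of -0.02. Scn3a, a sodium channel, had medians of 52.2 CPM in KO and 60.7 CPM in WT mice (-0.18, SE 0.05). The others were the sodium channel subunit Scn3b (-0.09), the calcium channels Cacna1d (-0.12) and Cacna1h (-0.13), and the potassium channels Kcnd2 (-0.08), Kcnj3 (-0.11) and Kcnj6 (-0.14). Kcnj3 and Kcnj6 are inward rectifiers gated by G proteins and not by voltage. Without mice 5 and 11, 3 of the 48 channel genes and 5 of the 69 synapse genes were called lower.

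Glutamate receptors and their partners gave 4 lower members of 38, Cnih3 (-0.17), Shisa9 (-0.10), Gria1 (-0.07) and Grik2 (-0.09), and 1 higher, Neto2 (0.08). Cnih3 and Shisa9 were still called lower without mice 5 and 11. GABA signalling gave 4 lower of 31, among them the receptor subunits Gabrd (-0.17) and Gabra4 (-0.11) and the calcium buffer Calb1 (-0.15). Among 33 postsynaptic scaffolds and kinases, Kalrn (-0.12), Ppp1r1a (-0.13) and Cnksr2 (-0.09) were lower and Camk2d (0.21) was higher. Homer1 had medians of 136 CPM in KO and 132 CPM in WT mice. The presynaptic vesicle list ran the other way, with 0 lower and 2 of 38 higher, Syt4 (0.08) and Unc13c (0.24).

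Gene length moved with the direction of these calls. Genes were called lower in 1.98% of the 4695 genes under 10 kb, in 5.33% of those from 100 to 300 kb and in 7.71% of the 545 longer ones, while the share called higher went from 2.43% to 1.98% and 1.47%. Over all genes of at least 100 kb, 5.88% were called lower. Of the 69 synapse genes 40 are that long, and 6 of these were lower, and of the 48 channel genes 29 are that long, and 5 were lower. The part of gene length in these 2 lists was not tested. In XY mice 2 synapse genes and 1 channel gene were called lower.

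Chaperones were called higher. Of 35 genes of the heat shock and unfolded protein responses, 6 were higher (17.1%) and 0 lower, with a median of 0.05 and 31 of 35 above 0. Bag3 lay between 9.17 and 11 CPM in KO and between 7.72 and 9.25 CPM in WT mice, where only WT mouse 28 lay inside the KO range. Hspa5, the endoplasmic reticulum HSP70 known as BiP, lay between 234 and 314 CPM in KO and between 209.9 and 284 CPM in WT mice (0.18, SE 0.08). The other 4 were the stress-induced HSP70 Hspa1a (0.15), Hspb1 (0.28), Hsp90aa1 (0.06) and the disulfide isomerase Pdia4 (0.16).

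Hspa1a and its neighbour Hspa1b (0.13, not called) are near-identical copies, so the split of reads between them is uncertain. For Bag3, Hspa1a, Hspb1 and Hspa5 the promoter is shown, since the heat shock and endoplasmic reticulum stress factors that drive chaperone genes bind known letters there. Each is the RefSeq window of GRCm38.p6 from 250 bases before to 50 bases after the gene's start, 5′ to 3′. Capitals mark TTCNNGAA or GAANNTTC, a short part of the heat shock element and not the whole of it. They also mark the endoplasmic reticulum stress element (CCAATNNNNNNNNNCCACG or its reverse complement).
Bag3, chr7:128523333-128523632, plus strand: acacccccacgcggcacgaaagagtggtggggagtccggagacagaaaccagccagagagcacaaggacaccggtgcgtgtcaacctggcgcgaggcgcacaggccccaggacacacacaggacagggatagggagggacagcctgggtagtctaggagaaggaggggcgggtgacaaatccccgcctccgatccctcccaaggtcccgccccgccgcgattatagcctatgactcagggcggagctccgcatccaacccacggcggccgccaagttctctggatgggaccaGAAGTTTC
Hspa1a, chr17:34972107-34972406, minus strand: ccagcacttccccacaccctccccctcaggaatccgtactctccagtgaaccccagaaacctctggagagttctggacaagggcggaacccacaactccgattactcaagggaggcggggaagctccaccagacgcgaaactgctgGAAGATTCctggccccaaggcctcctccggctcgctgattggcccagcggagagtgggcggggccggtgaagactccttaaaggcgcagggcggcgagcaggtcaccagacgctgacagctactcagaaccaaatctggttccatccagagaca
Hspb1, chr5:135887669-135887968, plus strand: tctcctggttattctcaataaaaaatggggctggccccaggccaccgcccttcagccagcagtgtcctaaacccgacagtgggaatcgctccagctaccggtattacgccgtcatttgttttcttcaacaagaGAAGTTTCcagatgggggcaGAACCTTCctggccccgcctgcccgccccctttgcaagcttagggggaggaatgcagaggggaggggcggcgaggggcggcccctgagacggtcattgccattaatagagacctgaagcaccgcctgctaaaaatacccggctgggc
Hspa5, chr2:34771840-34772139, plus strand: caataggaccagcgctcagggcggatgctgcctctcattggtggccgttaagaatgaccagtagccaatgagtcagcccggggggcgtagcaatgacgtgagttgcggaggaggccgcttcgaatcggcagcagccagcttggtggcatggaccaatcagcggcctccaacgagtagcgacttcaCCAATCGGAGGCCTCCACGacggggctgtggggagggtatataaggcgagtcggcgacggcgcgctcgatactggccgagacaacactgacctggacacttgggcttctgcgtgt

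The heat shock letters are in 15.1% of all 32851 promoter windows of this length. They are in 8 of the 28 list members with a window, and in 3 of the 5 called higher that have one (Bag3, Hspa1a and Hspb1). The endoplasmic reticulum stress letters are in 0.119% of all windows and in 6 of the 28, of which Hspa5 was the 1 called. The windows of Hspa1a and Hspa1b share 296 of 300 bases. A match describes these letters and is no evidence of binding.

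No single mouse set the chaperone calls, but they were not stable: leaving out mouse 8, 21, 23 or 27 left 3 called, and leaving out another single mouse gave 4 to 9. With mice 5 and 11 left out, 5 were called. In XY mice the list median was 0.04 and 1 member was called higher, Hsp90aa1 (0.07).

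Metalloproteinases, their inhibitors and the matrix changed little at the level of RNA. Timp3 and Timp4, which like TIMP2 inhibit metalloproteinases, had log2 fold changes of 0.05 (SE 0.05) and 0.02 (SE 0.05), and Timp1 had between 1 and 12 counts per mouse and was not tested. Mmp2, the protease most closely tied to TIMP2, lay between 1.61 and 2.89 CPM in KO and between 2.16 and 3.2 CPM in WT mice (-0.15, SE 0.13). Mmp14 changed by 0.01, Mmp9 by 0.07 and Reck, a membrane-bound inhibitor, by -0.003. Of 10 genes of this axis, Mmp15 was called higher (0.17) and Mmp16 lower (-0.12), and of 23 other metalloproteinases Adamts8 was called higher (0.30).

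Of 17 perineuronal net genes, Hapln4, a link protein, was called higher in XX mice (0.09) and in XY mice (0.10). Acan, which encodes aggrecan, had medians of 2.99 CPM in KO and 3.08 CPM in WT XX mice (-0.08, SE 0.11), while its log2 fold change in XY mice was 0.45, and the interaction had a p of 0.017 in edgeR's test with an adjusted p of 1. Bcan, Ncan, Vcan and Hapln1 changed by 0.01, -0.04, -0.08 and 0.004. Of 37 glycosaminoglycan enzymes, the hyaluronan-degrading Cemip (-0.18), the sulfotransferases Hs6st1 (-0.12), Hs2st1 (-0.07) and Chst15 (-0.12) were lower, and the sulfatase Sulf2 (0.07) was higher. Integrins gave 1 called in each direction of 14, Itga9 (0.27) and Itga8 (-0.21). Of 46 genes of collagens, laminins and fibrillar matrix, Bgn (0.22) and Col1a2 were higher. Both were highest in mouse 11, and neither was called without mice 5 and 11 (0.15 and 0.12).

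Immediate early genes, which neurons switch on within minutes of firing, varied mainly between mice. Fos lay between 4.11 and 39.9 CPM in KO mice with a median of 30.1, and between 3.37 and 33 CPM in WT mice with a median of 14.9. KO mouse 8 and WT mice 4, 16 and 21 lay under 5 CPM and the other 10 mice at 13.5 CPM or more, the groups overlapped over nearly their whole range, and the log2 fold change was 0.68 (SE 0.45). Of 27 rapid genes 24 had a positive log2 fold change with a list median of 0.21, and 1 was called, the matricellular Ccn1 (0.55, median 7.96 CPM in KO and 3.33 CPM in WT mice). WT mice 16 and 21 were also 2 of the 3 highest for the granule cell markers. Arc (0.48), Npas4 (0.57), Nr4a1 (0.41), Egr1 (0.36) and Junb (0.32) did not pass the threshold. In XY mice the list median was 0.18 and 7 were called higher. Of 29 delayed activity-regulated genes, Vgf was the 1 called.

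Lists of other cell types and of basic machinery had few calls. Microglia and complement gave 0 of 20, cytosolic ribosomal proteins 0 of 78, mitochondrially encoded genes 0 of 13, glucocorticoid-responsive genes 0 of 20, circadian clock genes 0 of 19, and receptors of monoamines, acetylcholine and peptides 0 of 39. Astrocytes gave 1 of 17, Id3 (0.17), the oligodendrocyte lineage 1 of 26, Aspa (0.17), and endothelial and mural cells 1 of 22, Vtn (0.13), all higher, and 0 were called higher in these 3 lists without mice 5 and 11. The oligodendrocyte list leaned higher all the same, with 23 of 26 genes above 0 and a median of 0.06 (0.08 in XY mice). Its mean log2 CPM was above the WT median in all 7 KO mice, though the ranges overlapped (5.43 to 5.62 in KO, 5.20 to 5.58 in WT).

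Nuclear genes of oxidative phosphorylation gave 1 higher of 76, Ndufa10 (0.07), the proteasome 1 of 34, Psmc5 (0.06), and cholesterol synthesis 1 of 23, Dhcr7 (0.12). Of 36 cell death genes, Diablo was higher (0.10) and Bbc3 (-0.20) and Bak1 (-0.13) were lower. Sex steroid and ovarian hormone genes, of interest in XX animals, gave 3 higher of 14, Prlr, the estrogen-related receptor Esrra (0.10) and the steroid reductase Srd5a1 (0.17), with Prlr moving with the choroid plexus list. Among 9 genes of X inactivation and escape, Pbdc1 was called higher (0.12), and Xist changed by -0.09. The list leaned lower, with 7 of the 9 below 0 and a median of -0.03. Its mean log2 CPM was below the WT median in all 7 KO mice, though the ranges overlapped (5.39 to 5.45 in KO, 5.37 to 5.52 in WT). In the striatal list of 10 genes, the opioid peptide precursor Penk was lower (-0.13), and 0 of 3 hemoglobin genes were called.

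**Figure D4:**
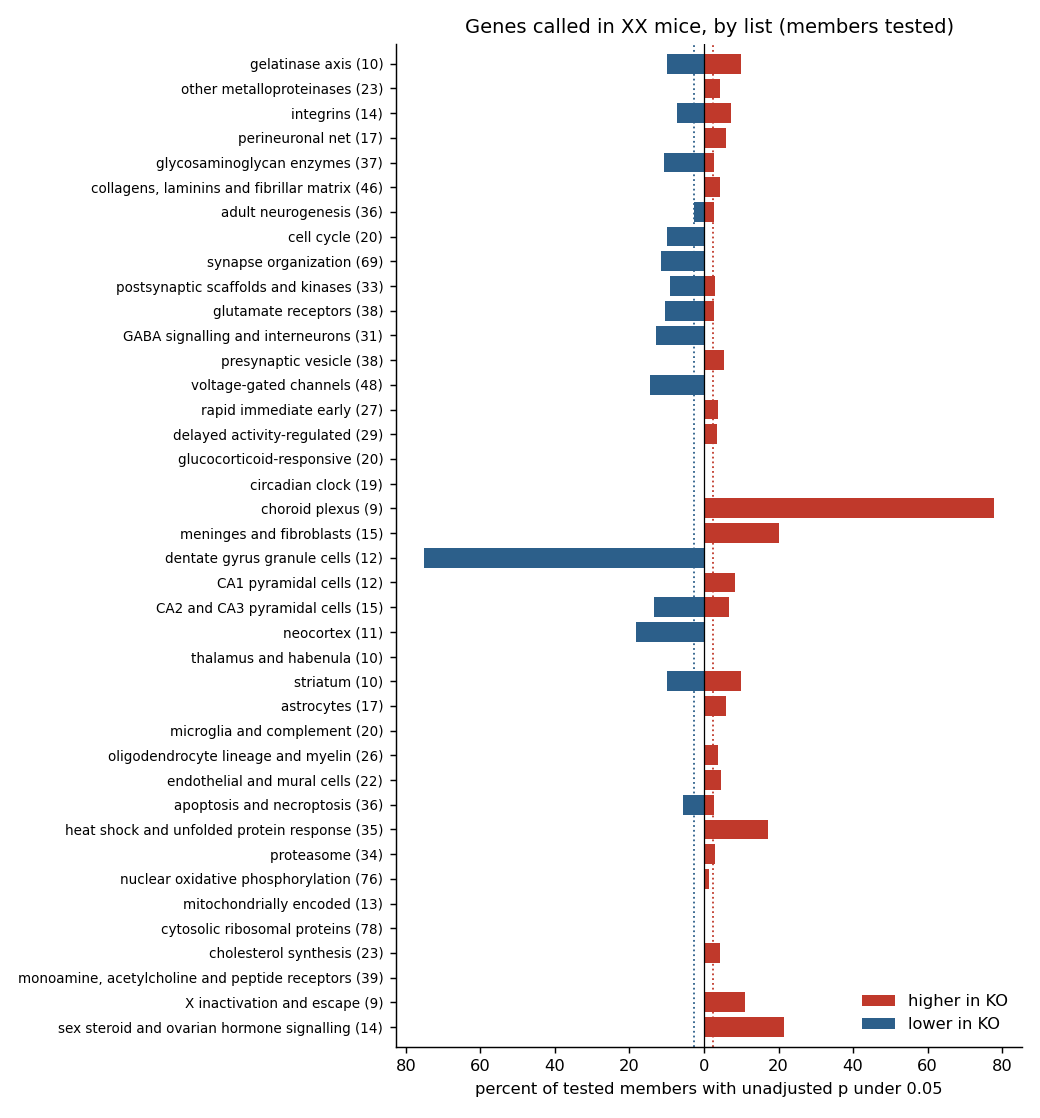
Percent of tested members called higher (red, right) and lower (blue, left) at an unadjusted p under 0.05 for lists with at least 9 members tested, with the number tested in brackets; dotted lines mark the shares over all genes, 2.33% higher and 2.69% lower. The choroid plexus (77.8% higher) and granule cell (75% lower) lists stand farthest from the dotted lines. Sparse choroid plexus members could pass the filter through the mice in which they were high. Without mice 5 and 11, 2 choroid plexus genes were called higher and 6 granule cell markers lower.

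The XY mice, which the XX fit did not use, showed how far the XX calls carry over. Of the 817 genes called in XX mice and tested in XY mice, 504 had the same sign there (61.7%), beside 54.2% of all 16307 genes tested in both. The same sign with an unadjusted p under 0.05 was found for 52 of the 817 (6.36%), beside 2.22% of all genes, and 7 were called in the opposite direction. Of the 52, 10 lie within 20 Mb of Timp2, Timp2 included, and 42 elsewhere. The shared calls numbered 36 without mice 5 and 11. The genes lower in XX mice kept their sign in 65.3% of cases with a median XY log2 fold change of -0.02 (-0.14 in XX), and the higher genes in 57.5% with a median of 0.02 (0.16 in XX).

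Among the 42 were the choroid plexus genes Ttr (5.04 in XX and 1.87 in XY), Clic6 (2.28 and 0.92), Enpp2 (0.59 and 0.22) and Sostdc1 (0.58 and 0.25), the granule cell markers Tdo2 (-0.30 and -0.17) and Stxbp6 (-0.18 and -0.11), and Vgf, Cemip, Scnn1a, Hapln4, Esrra and Hsp90aa1. Singled out after their values were seen, the imprinted gene Ndn (0.33 and 0.40), the transcription factor Elf5 (0.54 and 0.62) and Prox1os, the antisense neighbour of Prox1 (-0.28 and -0.23), were also among them. Without stated strand, reads of Prox1 and Prox1os may have been shared.

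No gene had a knockout effect that differed between XX and XY mice after adjustment. By edgeR's quasi-likelihood test of the interaction, 0 of 17095 genes had an adjusted p under 0.05, 455 had an unadjusted p under 0.05 (2.66%), and DESeq2 gave 0 and 415. Tmem269 (log2 fold change -0.48 in XX and 0.61 in XY mice), Cyb561a3 (0.13 and -0.26), Zfp524 (-0.22 and 0.29), Tbc1d20 (-0.14 and 0.03) and Rimklb (0.07 and -0.15) had the smallest p.

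**Figure D5:**
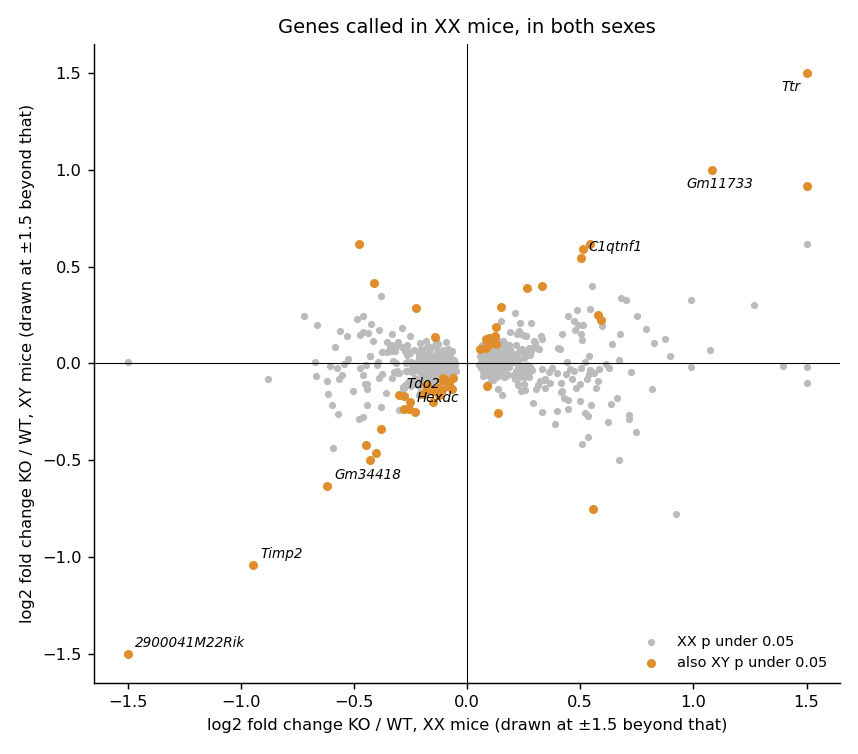
Log2 fold change (KO over WT) in XX mice against that in XY mice for the 817 genes called in XX mice and tested in both (values beyond 1.5 in either direction are drawn at 1.5); orange points also have an unadjusted p under 0.05 in XY mice. Timp2, 2900041M22Rik, Gm34418, C1qtnf1 and Gm11733 have like values in both sexes, while most other genes lie near 0 on the XY axis.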

How the data were processed

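Hippocampal RNA of 30 mice was sequenced as paired-end, poly(A)-selected libraries. The authors trimmed the reads, aligned them to GRCm38 (mm10) with STAR and deposited raw counts per gene and mouse, without normalization. Their processing notes name Trimmomatic 0.36, STAR 2.5.2b and featureCounts of Subread 1.5.2, and the study's own test was DESeq2. All 30 columns were matched to mice, 0 were left over, and 0 pairs of columns were identical. GENCODE M21 gave symbols for 49056 of 49315 identifiers.

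The 7 KO and 7 WT XX mice were fitted alone in edgeR 4.0.16 (R 4.3.3; TMM factors, filterByExpr, quasi-likelihood test, Benjamini-Hochberg adjustment over all genes tested). The XY mice were fitted in the same way, and the interaction was fitted over all 30 mice. Log2 CPM used a prior count of 2. The test was tried on simulated data. The p-values judge each difference against the spread between mice.

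Named genes were Timp2, genes with an adjusted p under 0.05 (up to 20), the 12 higher and 12 lower named genes of at least 1 CPM with the smallest p, up to 6 called members of each of 44 lists (otherwise the 2 most abundant), genes the paper discusses, the 5 smallest interaction p and genes near Timp2 called in both sexes. For the leading lists every called member is given. Some genes that meet the rule are not reported here. The members and lists were chosen with earlier results of these data known. Alternatives were DESeq2 1.42.0, RLE factors, other filters (none, or 10 counts in every mouse), all 30 mice, limma 3.58.1 voom, 4 surrogate variables from sva 3.50.0, log2 total counts, each mouse left out, and 10 or 40 Mb around Timp2. Leaving out mice 5 and 11 together was added after seeing the data. Motifs were searched in Python 3.11.15.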

Additional observations from a re-analysis of the deposited data

Results flagged for a closer look

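Within a group of 7 mice, a value was singled out when its gap to the nearest mouse took a larger share of the group's log2 CPM range than Dixon's critical value allows. This was examined for 60 genes in 120 groups, where chance gives about 6, and it singled out 8. For 2 granule cell markers KO mouse 5 was low: Dsp at 4.87 log2 CPM beside 5.31 for the next mouse, and Tdo2 at 2.76 beside 3.18. For another marker, Pdzd2, KO mouse 30 was high at 5.81 beside 5.53. For 2 choroid plexus genes KO mouse 11 was high: Prlr at 3.81 beside 2.37, and Cldn2 at 1.71 beside -0.06. The others were Tpra1 in WT mouse 19 (4.20), Mccc2 in WT mouse 28 (4.17) and Zfp758 in KO mouse 27 (4.26).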

How the results depend on the processing

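Timp2 stayed lower with an adjusted p under 0.05 under every alternative run, with log2 fold changes from -1.02 to -0.90. The 2 genes with an adjusted p under 0.05 became 1 with a minimum of 10 counts in every mouse. Without a filter on low counts, 845 genes were higher and 847 lower, and 17 choroid plexus genes were higher. That list gave 12 higher genes with all 30 mice in 1 fit, 4 with at least 10 counts in every mouse, 3 with limma voom and 1 with surrogate variables. The heat shock list gave 3 higher with all 30 mice and 2 with surrogate variables. With surrogate variables, 4 synapse organization genes and 3 genes of the channel list were lower. Without mice 5 and 11, chosen after seeing the data, 15 genes near Timp2, 2 choroid plexus genes, 5 synapse genes and 3 channel genes were called. The cause of these changes was not tested.

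Leaving out 1 mouse at a time gave 3 to 10 choroid plexus genes (3 without mouse 11), 3 to 9 heat shock genes, 5 to 11 synapse genes (5 without mouse 21), 3 to 13 channel genes (4 without mouse 5 or 11, 3 without mouse 16 or 21, 13 without mouse 30), 7 to 9 granule cell markers and 20 to 37 genes near Timp2. It gave 2 genes after adjustment each time, with 274 to 462 higher and 312 to 577 lower before it. No paired analysis was possible because the labels give each mouse a number of its own and name no litter or harvest date. With 10 or 40 Mb in place of 20 Mb around Timp2, 11.1% and 6.32% of genes near Timp2 were called.

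The standard error of a log2 fold change had a median of 0.06, so changes of the size of most called genes were close to the limit of 7 mice a group. Harvest date, a batch in the study's own network analysis, and dissection notes are not in the labels and were not fitted.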
